A study of Mus musculus with 9 samples.

Results

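Pcgf5 and Ing4 are chromatin regulator genes whose transcript counts were followed here in 9 single testis libraries. They are 2 of the 50485 rows of the deposited count table. Both carry StringTie locus numbers, MSTRG.10941 for Pcgf5 (ENSMUSG00000024805) and MSTRG.19069 for Ing4 (ENSMUSG00000030330), and their names come from the lists of differentially expressed genes of the study. They were picked from those lists for their levels in these libraries. The contrasts that chose them, Pcgf5 in both mutant genotypes against WT and Ing4 in Prm2+/Δc against WT, are therefore given as a description with no test.

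PCGF5 is one of the alternative RING finger subunits that define variant forms of Polycomb repressive complex 1, which places ubiquitin on histone H2A. ING4 carries a PHD finger that binds histone H3 with a methyl mark of active promoters, and it is a subunit of the HBO1 histone acetyltransferase complex. In the testis, germ cells rebuild their chromatin during meiosis and again in spermatids, where histones give way to transition proteins and then to protamines.

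The study asked how the loss of the cleaved N-terminal part of protamine 2 (cP2) affects sperm. RNA was taken from whole testes without the tunica albuginea, from 3 males each of WT, Prm2+/Δc (labelled het) and Prm2-/Δc (labelled hom), all with a C57BL/6 strain background. The methods give an age of 10 to 13 weeks for the males. The Prm2Δc allele lacks the cP2 coding part. It was made by CRISPR/Cas9 in oocytes of the B6D2F1 hybrid and then bred into C57BL/6J over 3 generations or more. Prm2+/Δc males carry it beside a WT allele. Prm2-/Δc males carry it beside a deleted Prm2 allele, so they are not homozygous for it despite their label, and they express no full-length Prm2. The deleted allele came from a separate, earlier published line, whose Prm2+/- males were bred with Prm2+/Δc females. Each library stands for the whole organ of 1 mouse. Total counts were 9070746, 11314641 and 16799651 in WT, 12041708, 16347645 and 20320362 for Prm2+/Δc and 14789266, 17441824 and 12409510 for Prm2-/Δc, in the order of the replicate numbers. Normalized counts below are deposited counts divided by size factors over all 9 libraries.

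One library stood apart from its group. At 17591 loci with a mean of at least 10 normalized counts, the library of Prm2-/Δc replicate 3 was at least 2-fold above or below both other Prm2-/Δc libraries at 2221 loci, or 12.6%. The same measure gave between 4.94% and 7.82% in the other 8 libraries. This library had 1209 such loci above both others and 1012 below them. The means of Ing4 and the spread and fold changes of both genes are given with and without it. The methods of the study give RNA integrity only as a range over all samples. RNA quality of single libraries was not analysed here, and the source of the difference was not tested.

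**Figure D1:**
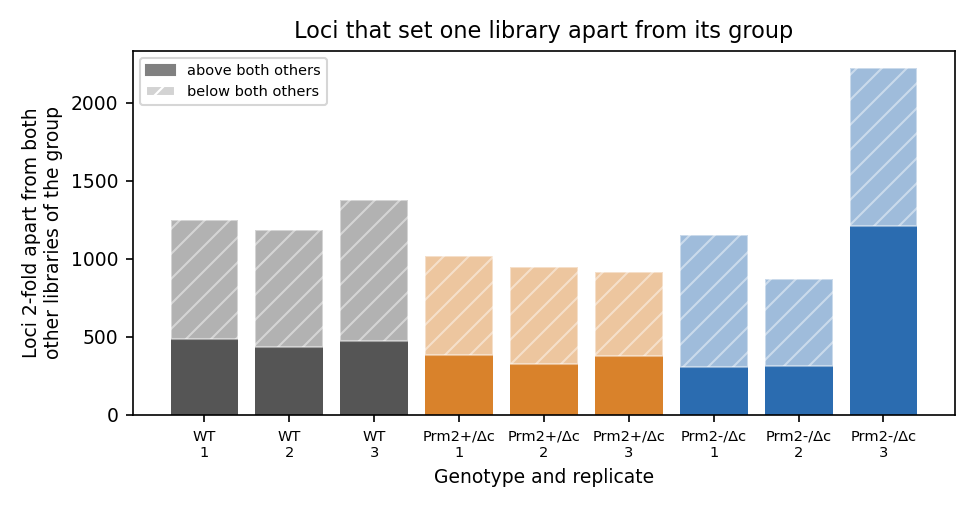
Number of loci (y axis) at which a library lies at least 2-fold above (solid) or below (hatched) both other libraries of its genotype, counted after adding 1 to the normalized counts of 17591 loci. Prm2-/Δc replicate 3 has 2221 such loci, and the other libraries have between 869 and 1375.

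On the mouse genome GRCm38, Pcgf5 lies on the plus strand of chromosome 19 from 36348309 to 36460970. The annotation (GENCODE M21) gives it 11 transcripts, of which 8 are protein coding, with 9 different starts and 9 different 3′ ends. Ing4 lies on the plus strand of chromosome 6 from 125039760 to 125049265, with 9 transcripts, of which 2 are protein coding. In 3′ libraries the reads come from the ends of transcripts, so a count adds up transcripts that start at different promoters. The poly(A) signal AATAAA occurs in the last 50 bases of 3 Pcgf5 and 4 Ing4 transcripts. For the longest Ing4 coding transcript, Ing4-201, the hexamer begins 21 bases before the annotated end.

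The windows around the annotated starts are given as a description of the sequence there. RefSeq windows on GRCm38.p6, with 250 bases before and 50 after a start, were found for both genes, 3 for Pcgf5 and 1 for Ing4. The first Pcgf5 window, at the 5′ end of the gene, is chr19:36348079-36348378 on the plus strand, and the Ing4 window is chr6:125039598-125039897 on the plus strand. Capitals mark matches to 4 motifs, searched on both strands: the cyclic AMP response element TGACGTCA, the CCAAT box CCAAT, the GC box GGGCGG and the TATA box TATAAA.
Pcgf5 window 1: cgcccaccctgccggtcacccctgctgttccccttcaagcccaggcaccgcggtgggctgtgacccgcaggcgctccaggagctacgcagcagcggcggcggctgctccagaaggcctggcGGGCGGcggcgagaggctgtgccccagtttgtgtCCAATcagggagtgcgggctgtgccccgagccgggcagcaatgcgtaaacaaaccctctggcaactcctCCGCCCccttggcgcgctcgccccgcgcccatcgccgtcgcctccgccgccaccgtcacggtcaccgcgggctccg
Ing4 window 1: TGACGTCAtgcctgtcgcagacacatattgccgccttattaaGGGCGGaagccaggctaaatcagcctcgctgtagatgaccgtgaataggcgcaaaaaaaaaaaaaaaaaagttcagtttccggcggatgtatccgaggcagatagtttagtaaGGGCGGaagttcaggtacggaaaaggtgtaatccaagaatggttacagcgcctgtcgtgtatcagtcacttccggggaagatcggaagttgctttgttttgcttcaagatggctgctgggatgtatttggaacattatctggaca
The Ing4 window opens with TGACGTCA, a palindrome and the element bound by CREB and the testis factor CREM, which 588 of all 32851 windows hold (1.79%). It also has 2 GC boxes, a motif found in 35.7% of all windows. The Pcgf5 window has 2 GC boxes and 1 CCAAT box, the latter found in 37.4% of all windows, and it has no match to the cyclic AMP response element. Neither window has a TATA box, which 13.6% of all windows hold. Of the other Pcgf5 windows, at 36378817 to 36379116 and 36409498 to 36409797, the first has 0 matches and the second 1 GC box. GC content was 73.0%, 48.3% and 78.7% in the Pcgf5 windows and 46.7% in that of Ing4, beside a median of 52.7% over all windows. A match is a description of letters, and no binding was measured.

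Pcgf5 had few counts in WT testes and was well detected in both mutant genotypes. The WT libraries of replicates 1, 2 and 3 had 5, 9 and 7 deposited counts, the Prm2+/Δc libraries 237, 232 and 367, and the Prm2-/Δc libraries 105, 229 and 125. After normalization these were 7.48, 10.8 and 5.74 in WT, 268, 199 and 259 for Prm2+/Δc and 101, 188 and 136 for Prm2-/Δc. All 6 libraries with the Prm2Δc allele exceeded all 3 WT libraries, and every Prm2-/Δc library was lower than every one of Prm2+/Δc.

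Ing4 had the opposite course and, at a far higher level, a tighter WT group. Its WT libraries had 6808, 8633 and 12666 deposited counts, which normalization brought to 10187, 10403 and 10389. The Prm2+/Δc libraries had 2317, 3296 and 3444 deposited and 2621, 2829 and 2428 normalized counts. The Prm2-/Δc libraries had 2926, 4459 and 6211 deposited and 2826, 3663 and 6747 normalized counts. All 6 libraries with the allele lay below all 3 WT libraries. Prm2-/Δc replicate 1 was at the Prm2+/Δc level, replicate 2 slightly above it, and replicate 3, the library that stood apart in general, lay between both other groups.

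**Figure D2:**
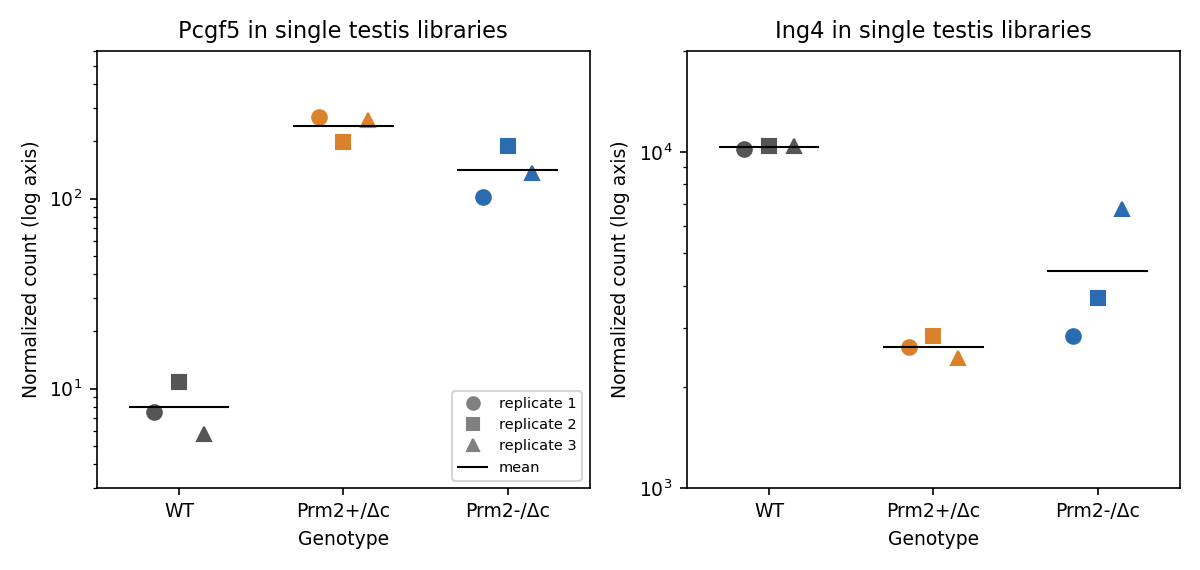
Normalized counts of Pcgf5 (left) and Ing4 (right) on log axes in each testis library, by genotype, with the mean of 3 mice as a line and a symbol for each replicate number. Pcgf5 lies between 5.74 and 10.8 in WT and between 101 and 268 in the other 6 libraries, and Ing4 lies between 10187 and 10403 in WT and between 2428 and 6747 in the other 6.

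Across the genotypes, Pcgf5 stood in the order WT, Prm2-/Δc, Prm2+/Δc, with 8.02 ± 2.59, 142 ± 43.7 and 242 ± 37.4 normalized counts (mean ± SD, n = 3). Prm2+/Δc was 30.2-fold and Prm2-/Δc 17.7-fold above WT. The neighbours WT and Prm2-/Δc were separated by a wide gap, since the lowest Prm2-/Δc library was 9.35-fold above the highest WT library. The neighbours Prm2-/Δc and Prm2+/Δc were separated by 5.85% only, between Prm2-/Δc replicate 2 and Prm2+/Δc replicate 2. Because WT is low, these folds rest on few counts. Taken as if they were tallies of reads, the 21 counts summed over the WT libraries have an exact 95% Poisson interval from 13 to 32.1. They are estimates scaled by a read length that is not known here, so the interval is only a rough guide to counting error. It does not cover the spread between mice. The levels are a description, since Pcgf5 was chosen for them.

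Ing4 stood in the order Prm2+/Δc, Prm2-/Δc, WT, with 2626 ± 201, 4412 ± 2065 and 10326 ± 121 normalized counts (mean ± SD, n = 3). Prm2+/Δc testes had 25.4% and Prm2-/Δc testes 42.7% of the WT mean. The lowest WT library was 3.60-fold above the highest Prm2+/Δc library and 1.51-fold above the highest Prm2-/Δc library. The neighbours Prm2+/Δc and Prm2-/Δc overlapped, since Prm2-/Δc replicate 1 lay below Prm2+/Δc replicate 2, by less than 3 normalized counts. Without Prm2-/Δc replicate 3, the mean of the 2 remaining libraries was 3245, or 31.4% of the WT mean, while replicate 3 alone had 65.3% of it. In a bulk sample, fewer cells of a type and less RNA per cell cannot be told apart, for either gene.

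The spread between mice differed between the groups. The coefficient of variation of Ing4 was 1.17% in WT, 7.64% for Prm2+/Δc and 46.8% for Prm2-/Δc. Loci within 2-fold of its mean had median coefficients of 9.03%, 7.01% and 14.8% in the same groups. In WT, 4 of 393 such loci varied less than Ing4, and in Prm2-/Δc testes 988 of 1059 did. Both genes were chosen through contrasts with these WT libraries, so their spread beside that of other loci is a description only. Without Prm2-/Δc replicate 3, its coefficient in that group was 18.2%, beside a median of 6.79%, and 1200 of 1357 such loci varied less. Pcgf5 varied by 32.3% in WT, 15.5% for Prm2+/Δc and 30.8% for Prm2-/Δc, where loci of like level had medians of 69.9%, 13.4% and 23.1%. Without that replicate it varied by 42.3% in Prm2-/Δc, beside a median of 13.2%. On the log2 scale, with 1 added, the Prm2-/Δc libraries of replicates 1, 2 and 3 had covered 94.5%, 75.6% and 31.0% of the way from the WT mean to the Prm2+/Δc mean for Ing4. For Pcgf5 they had covered 74.2%, 92.7% and 82.9%. Replicate 3 thus lay nearest to WT for Ing4 and in the middle of its group for Pcgf5.

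To compare genotypes on one scale, all loci of the table were fitted with edgeR's quasi-likelihood test, and a locus was called when its p, adjusted by Benjamini and Hochberg's method, was under 0.05 and its log2 fold change exceeded 1 in size. Between Prm2+/Δc and WT, Pcgf5 had a log2 fold change of 4.91 (standard error 0.31) and Ing4 one of -1.98 (standard error 0.083). Of 17815 loci tested in this contrast, 0.073% were called (0.0281% higher and 0.0449% lower). At 5.54% of the 17591 loci, as for Pcgf5, every Prm2+/Δc library exceeded every WT library, and at 4.63%, as for Ing4, the reverse was true. Nothing is read from these shares, since this contrast chose both genes.

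Between Prm2-/Δc and WT, Pcgf5 had a log2 fold change of 4.14 (standard error 0.40), which is again a description, and no test is given for it, passed or not. Ing4 had a log2 fold change of -1.22 (standard error 0.32) and did not pass the test, with an adjusted p of 1 in this edgeR fit, adjusted over all loci, although it was lower in 3 of 3 libraries. The same libraries chose the gene through the other genotype and share the WT group, so this is no independent comparison. Of 17637 loci, 0.00567% were called. At 4.35% of loci every Prm2-/Δc library was below every WT library, and at 4.52% every one was above. The 6 libraries with the allele all lay above WT at 1.13% of loci, as for Pcgf5, and all below at 1.07%, as for Ing4. Without Prm2-/Δc replicate 3, the log2 fold change of Ing4 was -1.67 (standard error 0.14) and its adjusted p 0.0499 in the same edgeR test. It was then called, just under the cutoff, as 1 of 20 loci called among 18486 in that fit. The library left out was the Prm2-/Δc library nearest to WT for Ing4, so nothing more is read from this call. Over the 6 fits that left out 1 library each, the adjusted p of Ing4 ranged from 0.0499 to 1, and with DESeq2 on all 6 libraries it was 0.131.

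The direct comparison of Prm2-/Δc with Prm2+/Δc testes asked whether the second Prm2 allele, deleted or WT, went with a different level. Prm2-/Δc males also descend from the line of the deleted allele, and the allele and its line of origin cannot be told apart here. Pcgf5 was lower in Prm2-/Δc by a log2 fold change of -0.77 (standard error 0.27), with an adjusted p of 0.999 in this edgeR fit, adjusted over all loci. Every Prm2-/Δc library was lower than every Prm2+/Δc library, which held for 5.37% of loci, while the reverse held for 4.67%. Ing4 was higher in Prm2-/Δc by 0.75 (standard error 0.33), with an adjusted p of 0.999 in the same edgeR test, and 2 of 3 libraries lay above all Prm2+/Δc libraries. Neither gene was called, where 0.0111% of 17986 loci were. Without Prm2-/Δc replicate 3, the value of Ing4 was 0.29 (standard error 0.14, edgeR adjusted p = 0.623), while that of Pcgf5 was -0.75 (standard error 0.32, edgeR adjusted p = 0.584). Ing4 was chosen for its low values in the same Prm2+/Δc libraries, so its comparison leans towards higher values in Prm2-/Δc, and Pcgf5 was chosen from both genotypes, so neither comparison is independent of the choice. The size of both values is also below the limit for a call, and the test does not show that the levels were equal.

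**Figure D3:**
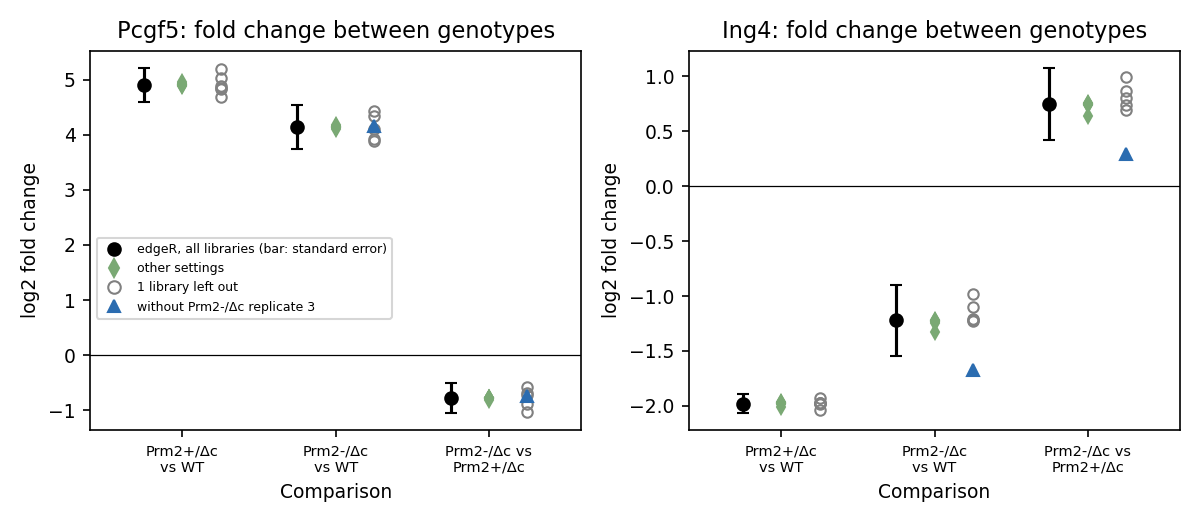
Log2 fold changes (y axis) of Pcgf5 (left) and Ing4 (right) in the 3 comparisons: filled circles are the edgeR values with all libraries and their standard error, diamonds the other settings, open circles the fits without 1 library and triangles those without Prm2-/Δc replicate 3. Leaving out that replicate moved Ing4 from -1.22 to -1.67 against WT and from 0.75 to 0.29 against Prm2+/Δc, and moved Pcgf5 from 4.14 to 4.17 and from -0.77 to -0.75.

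Loci next to both genes were examined because reads of overlapping or adjoining transcripts can be counted for either. Locus numbers follow the order of genes along the chromosomes in all 130 neighbouring pairs of named loci, but the nearest named loci are 12 numbers away from Pcgf5 (Ide) and 52 from Ing4 (Fkbp4), so those in between are given by number. Of the 5 loci on each side of Pcgf5, 6 had enough counts to be tested. Against WT, their log2 fold changes lay between -0.22 and 0.14 for Prm2+/Δc and between -0.05 and 0.24 for Prm2-/Δc. The remaining 4 had no counts in any library. The locus directly before Pcgf5, MSTRG.10940, had 338, 434 and 249 normalized counts in WT, 432, 321 and 328.5 for Prm2+/Δc and 172, 311 and 562 for Prm2-/Δc. Its groups overlapped.

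Of the 10 loci around Ing4, 8 were tested. Against WT, their log2 fold changes ranged from -0.65 to 0.48 for Prm2+/Δc and from -1.26 to 0.18 for Prm2-/Δc. The locus directly after it, MSTRG.19070, had 3132, 1964 and 2476 normalized counts in WT, 2075, 1703 and 2818 for Prm2+/Δc and 2629, 2450 and 1088 for Prm2-/Δc. Its groups overlapped. The locus directly before it, MSTRG.19068, had 67.3, 100 and 75.5 in WT, 38.5, 54.9 and 61.3 for Prm2+/Δc and 0, 91.2 and 55.4 for Prm2-/Δc, so that every Prm2+/Δc library and 2 of 3 Prm2-/Δc libraries lay below WT and the third was within its range.

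**Figure D4:**
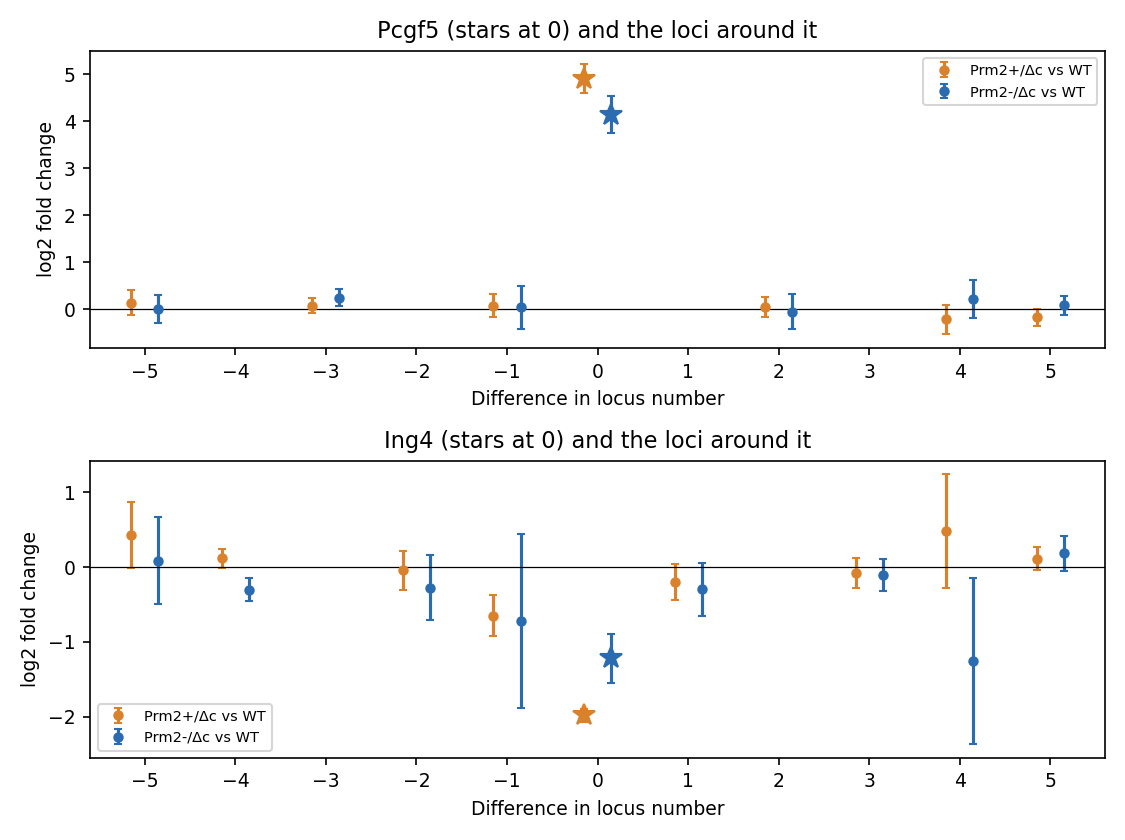
Log2 fold changes against WT with standard errors (y axis) of Pcgf5 (top) and Ing4 (bottom), drawn as stars, and of the tested loci up to 5 locus numbers away (x axis), for Prm2+/Δc and Prm2-/Δc. Around Pcgf5 the other loci stay between -0.22 and 0.24, and around Ing4 they stay between -1.26 and 0.48.

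Which transcripts a locus adds up is not settled by its name. The annotated gene Gm44597 runs on the same strand from within Ing4 (125039816) into the next gene, Acrbp (to 125051542). It shares 1855 exonic bases with Ing4 and 975 with Acrbp, which encodes the acrosin binding protein of the acrosome, begins 424 bases after the end of Ing4 and shares no exonic base with it. No row carries the identifier of Acrbp or Gm44597, and whether some of their reads are in the Ing4 count was not tested. On the minus strand 4930557K07Rik spans Ing4 without sharing exonic bases. Within Pcgf5 lie the processed pseudogenes Gm47773 and Gm9042, the small nuclear RNA gene Gm23170 on the minus strand and the antisense gene F530104D19Rik, which shares 60 exonic bases with Pcgf5. No row carries the identifier of any of these, and whether a numbered locus holds them is not known. The use of strand in counting is not given in the sources used here, so reads of a gene and its antisense partner cannot be told apart.

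To place both genes among the rest, the profile of each over the 9 libraries was compared with those of 17590 other loci, by the root mean square difference of centred log2 values. The loci most like Pcgf5 were Eri3 (0.66), Gm37933 (0.81), Ergic2 (1.19), MSTRG.25488 (1.29) and Tmem267 (1.29), where the median over all loci was 2.15. The next, MSTRG.25471, also had 1.29. Eri3 encodes an exoribonuclease and Ergic2 a protein of the compartment between the endoplasmic reticulum and the Golgi. Eri3 had 53.9, 39.8 and 17.2 normalized counts in WT, 410, 397 and 408 for Prm2+/Δc and 386, 486 and 216 for Prm2-/Δc. Tmem267 had 230.4, 521 and 219.8 in WT, 2696, 1516 and 2184 for Prm2+/Δc and 1891, 1848 and 267 for Prm2-/Δc. Prm2-/Δc replicate 3 thus fell back into the WT range at Tmem267, while at Eri3 and Pcgf5 it stayed above WT. Ergic2 had 1037 normalized counts in that library, against 4117 and 3504 in the other two of its group and at most 960 in WT.

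The loci most like Ing4 were Irak1 (0.34), Rps20 (0.44), MSTRG.25215 (0.45), Gm20045 (0.48) and Ccnl2 (0.49), beside a median of 0.96. Irak1 encodes a kinase of interleukin 1 receptor signalling, Rps20 a protein of the small ribosomal subunit and Ccnl2 a cyclin linked to splicing. Irak1 had 83.8, 66.3 and 58.2 normalized counts in WT, 23.8, 22.3 and 14.8 for Prm2+/Δc and 12.6, 37.0 and 53.2 for Prm2-/Δc. Its Prm2-/Δc libraries were thus spread like those of Ing4, with replicate 1 lowest and replicate 3 highest. Ccnl2 had 361, 436 and 292 in WT, 137, 148 and 95.2 for Prm2+/Δc and 260, 218 and 464 for Prm2-/Δc, so that only its Prm2+/Δc group lay apart from WT. Rps20 was low in all Prm2-/Δc libraries, with 5410, 3192 and 6067 against at least 18112 in WT. Of the 10 loci named here for both genes, 7 come from the lists of differentially expressed genes of the study. Those lists were drawn from the same libraries, and the part of this selection in the likeness was not tested.

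**Figure D5:**
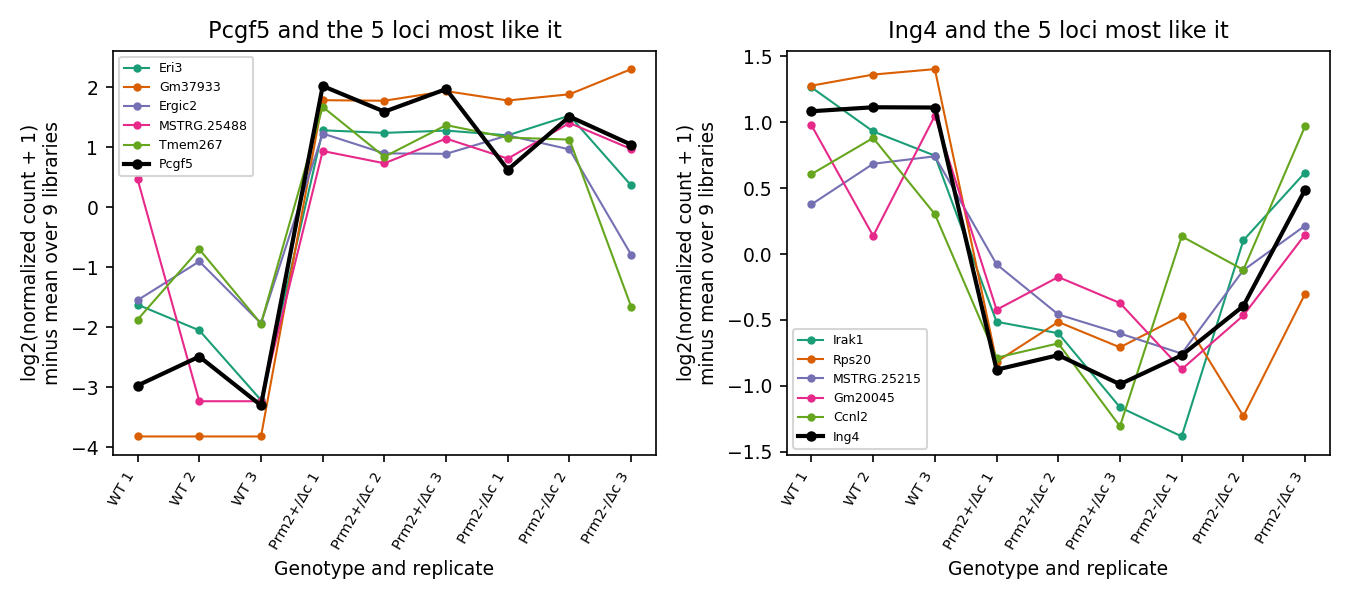
Centred log2(normalized count + 1) (y axis) of Pcgf5 (left, black) and Ing4 (right, black) and of the 5 loci most like each, in the 9 libraries (x axis). Lines join the points of a locus and imply no order of replicates. At Prm2-/Δc replicate 3, Tmem267 and Ergic2 drop towards WT while Pcgf5 does not, Ing4 and Irak1 rise towards WT, and Ccnl2 rises above it.

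Partners of both proteins could be followed only in part. Of 94 genes on 6 lists (Polycomb complexes 1 and 2, the deubiquitinase PR-DUB, the ING family, the HBO1 and MOZ complexes and the exchange of histones for protamines), 10 had a named row, so statements on whole lists are void. The share was 8.57% for Polycomb complex 1, 16.7% for Polycomb complex 2, 18.2% for PR-DUB, 20.0% for the ING family, 25% for the HBO1 and MOZ complexes and 0% for the exchange list. Besides Pcgf5 and Ing4, 4 had at least 10 normalized counts on average. edgeR called 0 of the 4 tested in each contrast with WT and 0 of 5 between the mutant genotypes, and 1, 1 and 0 of these had an unadjusted p under 0.05. Over all loci, 13 of 17815, 1 of 17637 and 2 of 17986 were called, and 659, 565 and 733 had an unadjusted p under 0.05. DESeq2 also called 0 of those it tested. The median log2 fold change of the 4 against WT was -0.24 for Prm2+/Δc and -0.03 for Prm2-/Δc, beside 0.00 and 0.01 over all loci.

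Cbx8, a chromodomain subunit of canonical Polycomb complex 1, had 18.6 ± 6.21, 27.5 ± 13.5 and 17.1 ± 5.28 normalized counts in WT, Prm2+/Δc and Prm2-/Δc testes (mean ± SD, n = 3). Kat6b, the acetyltransferase of the MORF complex, had 38.0 ± 17.4, 30.0 ± 13.5 and 53.2 ± 34.1. Jade2, a scaffold of the HBO1 complex, had 66.2 ± 5.86, 61.5 ± 12.9 and 68.3 ± 20.95. None of these 3 genes differed between genotypes by more than the spread between mice. Mbd6, a subunit of PR-DUB, had 588, 641 and 647 normalized counts in WT, 415, 343 and 367 for Prm2+/Δc and 434, 460 and 366 for Prm2-/Δc, so that all 6 libraries with the allele lay below WT. The same held for 189 of 17591 loci (1.07%). The log2 fold change of Mbd6 was -0.74 (standard error 0.12) for Prm2+/Δc and -0.57 (standard error 0.15) for Prm2-/Δc against WT, and it was not called. Its row has a name because the study listed it from these libraries, so its direction is no independent evidence.

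Cell type markers had the same limit, with a named row for 16 of 86 genes on 10 lists, and their part in the levels of Pcgf5 and Ing4 was not tested. The elongating spermatid list had 1 of 9, Cylc1, a gene of the sperm head cytoskeleton, with 4380, 4073 and 4113 normalized counts in WT, 765, 693 and 711 for Prm2+/Δc and 857, 945 and 5943 for Prm2-/Δc. As for Ing4, Prm2-/Δc replicate 3 parted from the other two Prm2-/Δc libraries towards WT, and here it exceeded WT. Spermatogonia had 3 of 10 (most abundant Kit), with summed counts of 156, 117 and 121 in WT, 106, 97.0 and 139 for Prm2+/Δc and 106, 79.7 and 117 for Prm2-/Δc, which overlapped. Spermatocyte and round spermatid lists had none.

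Among somatic lists, peritubular myoid cells had 2 of 8 (most abundant Myl9), with sums of 625, 575 and 66.4 in WT, 78.1, 62.7 and 107 for Prm2+/Δc and 745, 77.2 and 469 for Prm2-/Δc. Red blood cells had 3 of 7 (most abundant Hbb-bs), with sums of 591, 381 and 495 in WT, 792, 1017 and 1418 for Prm2+/Δc and 573, 692 and 1142 for Prm2-/Δc, so that Prm2+/Δc exceeded WT in every library. Nearly all of this sum is Hbb-bs, while Slc4a1 had means of 5.86 in WT and 1.13 for Prm2+/Δc. The rows of Hbb-bs, Myl9 and Cylc1 have a name because the study listed them from these libraries, so their patterns were selected. Leydig cells had 1 of 10 (Lhcgr), with sums between 6.34 and 26.5, and macrophages 1 of 7 (Adgre1), with sums between 0 and 22.3. The Ensembl rows of the Sertoli cell genes Amh and Fshr and of all 3 epididymis genes with a named row were at 0 in every library. Ensembl rows hold 0.391% of all counts, so a low or empty one does not show that its gene was low or absent, since its reads can lie in a locus with no name.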

How the data were processed

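Testis RNA of 9 mice was sequenced as QuantSeq 3′ mRNA libraries with 50 bp reads. The authors mapped the reads with HISAT2 2.1 to GRCm38 (Ensembl release 89), assembled loci with StringTie 1.3.3 and deposited estimated counts (expected counts) per locus from its preDE script, which divides coverage times length by a read length (default 75). The length they set is not given in the sources used here. The deposited estimated counts were whole numbers already, so rounding changed none. The authors tested with DESeq2 1.16.1.

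Here edgeR 4.0.16 in R 4.3.3 (glmQLFit and glmQLFTest, TMM, filterByExpr, Benjamini-Hochberg adjustment over all loci tested) compared each pair of genotypes. The standard error of a log2 fold change is its size over the square root of F. Counts were normalized with size factors that DESeq2 1.42.0 gave for the 9 libraries together. Depth ranged from 9070746 to 20320362 counts per library. Alternatives were DESeq2's Wald test, edgeR with either its size factors or plain library totals, a filter of just 1 count, all 9 libraries in one fit, the replicate number as a block and each library left out. The edgeR fit was tried on counts simulated from the means and depths of the Prm2+/Δc and WT libraries. Of 200 loci changed by a log2 fold change of 2 in size, it called 138 (69%), and it called 11 unchanged loci. A first simulation with a common dispersion for all loci recovered fewer, after which dispersions of single loci were used. A missing call thus does not show that a locus was unchanged. No library pair of 36 was alike within sampling noise, with a chi-square per locus of at least 28.6.

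Names came from the study's lists of differentially expressed genes for 150 StringTie loci and from the annotation for 24873 of 24982 Ensembl rows, which hold 0.391% of all counts. Named genes are Pcgf5, Ing4, genes of the pathway lists with at least 10 mean normalized counts or a call, the 5 loci most like each of the 2 genes, the 5 loci on each side of them and tissue markers. The 2 genes and all lists were chosen with earlier results of these data known, and the promoter motifs were chosen after the windows had been seen.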

Additional observations from a re-analysis of the deposited data

How the results depend on the processing

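For the 3 tested results (Ing4 in Prm2-/Δc against WT, both genes in Prm2-/Δc against Prm2+/Δc), all 6 other settings kept the direction and the side of the thresholds. The fold changes that chose the genes moved by less than the spread between replicates, but the standard error of Ing4 in Prm2+/Δc against WT rose from 0.083 to 0.29 with all 9 libraries in one fit, and no call is read from these. Among the tested results, leaving out 1 library changed a call for Ing4 in Prm2-/Δc against WT alone: its log2 fold change ranged from -1.67 to -0.98, and without Prm2-/Δc replicate 3 it was called (edgeR adjusted p = 0.0499, range 0.0499 to 1). Against Prm2+/Δc, the range of Ing4 was 0.29 to 0.99 and that of Pcgf5 -1.03 to -0.58. Against WT, Prm2+/Δc gave 4.68 to 5.19 for Pcgf5 and -2.04 to -1.92 for Ing4, and Prm2-/Δc gave 3.89 to 4.43 for Pcgf5.

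The background of called loci moved more. It was 13, 1 and 2 loci (Prm2+/Δc against WT, Prm2-/Δc against WT, Prm2-/Δc against Prm2+/Δc). With DESeq2 it was 83, 69 and 108, and with all 9 libraries in one fit 5, 7 and 4. Without a filter it was 6 in the last comparison. Leaving out 1 library gave ranges of 12 to 37, 0 to 20 and 0 to 70. The highest counts came without WT replicate 3 in the first comparison and without Prm2-/Δc replicate 3 in the other two. WT replicates 1 and 2 gave 22 and 20 in the first. The cause was not tested. With library totals the median of all loci moved to -0.03 at most.

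The genotypes share replicate numbers only. Deviations from the group means of same-numbered libraries correlated between -0.23 and 0.07 over 9 pairs, and in 3 of 9 comparisons a library correlated best with its own number. With the replicate block, 3, 0 and 0 loci were called, while 448, 361 and 529 had an unadjusted p under 0.05. The pathway genes other than Pcgf5 and Ing4 gave 0 calls in each of the 6 other settings, and their calls with a library left out were not counted. Of the 5 loci most like Ing4, 3 recurred with a pseudocount of 5 and 5 with TMM scaling, and of those most like Pcgf5 4 or more did.

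Each genotype has 3 mice, and whole testes do not show which cells carry a transcript. Estimated counts come from reads and not from molecules. Locus names are known for few genes, overlapping transcripts are not separated, and start sites cannot be told apart in 3′ reads. Pcgf5 rests on 5 to 9 counts per WT library, so that its fold is less certain than its presence. Its levels, and those of Ing4 in Prm2+/Δc, chose the genes, and they were not tested in other mice.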

Other observations

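MSTRG.19073, which is 4 locus numbers after Ing4 and has no name here, had 2 levels that did not follow the genotypes. It had 401, 370 and 36.9 normalized counts in WT, 320, 415 and 393 for Prm2+/Δc and 35.7, 35.3 and 265 for Prm2-/Δc. WT replicate 3 and Prm2-/Δc replicates 1 and 2 were low, and the other 6 libraries were high. The low libraries differ from those with low Ing4, which include all Prm2+/Δc libraries. MSTRG.19068, directly before Ing4, had no counts in Prm2-/Δc replicate 1 and at least 38.5 normalized counts in each of the other 8 libraries.

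Myl9, a myosin light chain of smooth muscle, also had 2 levels, with 572, 504 and 6.56 normalized counts in WT, 4.53, 7.72 and 11.3 for Prm2+/Δc and 675, 11.5 and 405 for Prm2-/Δc. Here WT replicate 3, all Prm2+/Δc libraries and Prm2-/Δc replicate 2 were low, so that the library split differs from that of MSTRG.19073. Col1a1, the other named gene of that marker list, had between 53.9 and 95.9 normalized counts in all 9 libraries and did not follow it.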
